A study of Mus musculus with 22 samples.

Results

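The 8 genes described here encode the myosin heavy chains of striated muscle, and they were followed in interscapular brown adipose tissue (BAT) of mice with and without the RNA-binding protein CPEB2. They were taken by name as Myh1, Myh2, Myh3, Myh4, Myh6, Myh7, Myh8 and Myh13, 8 of the 55487 genes counted. No cutoff on a measured value was used, but earlier results of these data were known when they were chosen. The untreated cohort held 5 CPEB2-WT and 5 CPEB2-KO mice, whose BAT was taken between 21 and 25 weeks of age after a few hours without food. The AAV cohort crossed both genotypes with 2 viruses, AAV-GFP and AAV-PRDM16, with 3 mice in each of the 4 groups, written as WT+AAV-GFP and so on. These mice were given 20000000000 vector genomes of adeno-associated virus (AAV) carrying GFP or flag-tagged PRDM16 in 30 µl at 16 weeks, injected into the interscapular BAT, and the tissue was taken 9 weeks later, at 25 weeks of age. All mice were of the C57BL/6 background and are labelled male, and KO mice lacked CPEB2 in every tissue, not only in fat. WT and KO mice came from heterozygous matings, and adult KO mice are the survivors of a loss of KO pups soon after birth. The labels mention trimming of the tissue for the AAV cohort and do not mention it for the untreated cohort.

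Each striated muscle fibre builds its thick filaments from pairs of myosin heavy chains, the motor proteins that pull on actin, and which chain it uses sets how fast it contracts. Adult mouse skeletal muscle uses Myh4 (type 2B) and Myh1 (type 2X) in fast glycolytic fibres, Myh2 (type 2A) in fast oxidative fibres and Myh7 (type 1) in slow fibres, where Myh7 is also the beta chain of the heart. Myh6 is the alpha chain of the heart, Myh3 the embryonic and Myh8 the perinatal chain of developing and regenerating fibres, and Myh13 the chain of the extraocular muscles. Brown adipocytes come from precursors that can also form skeletal muscle, and interscapular BAT lies against the muscles of the back. In bulk tissue, fewer muscle fibres and less myosin RNA per fibre cannot be told apart.

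The untreated libraries held 55320927 to 162721202 counts each and those of the AAV cohort 61636889 to 143005309. Ucp1, the uncoupling protein that defines brown fat, stood between 1184 and 6697 CPM, counts scaled to the size of the library, in the 22 libraries. The library labelled KO mouse 1 held 11.7 CPM of Cpeb2, inside the range of the 5 untreated WT libraries (7.69 to 14.3 CPM), whereas the other 4 untreated KO libraries held 2.10 to 5.78 CPM. Y-linked transcripts were nearly absent, and Xist was high, in 2 WT and 4 KO libraries of the untreated cohort although all mice are labelled male, and WT mouse 4 held both kinds. This split is uneven between the genotypes, so it is partly mixed with untreated KO against WT. The genotype names below are those of the labels.

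On GRCm38 the family sits in 2 places. Myh3, Myh2, Myh1, Myh4, Myh8 and Myh13 follow each other on the plus strand of chromosome 11 over 293.3 kb, at chr11:67078300-67371586. Myh6 and Myh7 lie side by side on the minus strand of chromosome 14 over 52.7 kb, at chr14:54941921-54994626. Each gene has 39 to 41 exons and encodes 1935 to 1942 amino acids. The genes are near copies of each other, which matters for how reads are assigned. Over their aligned coding bases Myh6 and Myh7 were 91.64% identical, Myh1 and Myh2 90.95%, Myh1 and Myh4 90.1%, and the least alike pair, Myh6 and Myh13, 75.72%. In Myh1, 31.5% of all 50-base stretches of the transcript also occurred in another gene, against 29.2% in Myh2, 28.7% in Myh7, 18.9% in Myh4 and 4.85% in Myh3. With 100-base stretches these shares were 13.7%, 11.3%, 14.1%, 3.85% and 1.15%. These shares also count matches to transcripts on the opposite strand, so not all of them are likeness within the family. Of 801 shared 100-base stretches of Myh1, 454 were found in Myh2 and 241 in the antisense transcript Myhas. Of 852 of Myh7, 687 were found in Myh6 and 146 in the antisense transcript Mhrt. The stretch of coding sequence that best separates the adult fast chains is shown first, with capitals at the positions where the 3 genes are not all the same.
Myh4, exon 28, chr11:67254484-67254513, plus strand: aaAgaCGcTAtGgtTtcTcagCtTtcCCgA
Myh1, exon 29, chr11:67217490-67217519, plus strand: aaGgaTTcATtAgtTtcCcagCtCtcCAgG
Myh2, exon 28, chr11:67191374-67191403, plus strand: aaGgaAGcGCtGgtAtcTcagTtAtcAAgG
Each pair differed at 10 of these 30 bases, so a read here can be given to 1 gene. In contrast, the 30 bases below, from exon 14 of Myh4 at chr11:67246503-67246532, were the same in Myh1 and Myh2 and lie in a run of identical bases that reached 140 at its longest in the 3 genes.
Myh4, Myh1 and Myh2: gggatggacctggcggcctgcatcgagctc
A read inside such a run cannot be told apart between the 3 genes. How the counting treated reads that fit several genes is not given in the sources used here, so the split between near copies is uncertain, more so for Myh1, Myh2 and Myh7 than for Myh4.

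The promoters shared a feature as well. A run of 14 bases, in capitals below, stood in the window from 250 bases before to 50 bases after the start site of Myh1, Myh2, Myh4 and Myh8, in RefSeq sequence of GRCm38, between 54 and 160 bases before the start. It was picked because the 4 genes share it, so it is a description only.
Myh1, chr11:67199934-67199963, plus strand: gggaatatTTCTAATTATATCCaaacatcc
Myh2, chr11:67170894-67170923, plus strand: aaaaatatTTCTAATTATATCCaaccattc
Myh4, chr11:67237646-67237675, plus strand: agaaatatTTCTAATTATATCCattcacag
Myh8, chr11:67277062-67277091, plus strand: atgaatacTTCTAATTATATCCgaagatgc
The same 14 bases, searched on both strands, were found in 4 of 32851 promoter windows (0.0122%), those of these 4 genes. Shorter letters known from muscle promoters were found more widely. The motif CATTCC stood in the windows of Myh1, Myh4, Myh6 and Myh7 and in 14.7% of all windows, and the MEF2 site, bound by the muscle factors of that name, in those of Myh1, Myh4 and Myh8 and in 1.86% of all. The motif CANNTG, to which myogenic factors bind, stood in 6 of the 8 and in 72.3% of all, and TATAAA in 6 of the 8 and in 13.6% of all.

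Among the 8 genes, the adult fast chains gave the most RNA in untreated BAT. Per kilobase of transcript, the mean level over the 10 untreated libraries was 73.3 CPM per kb for Myh4, 20.2 for Myh1, 15.9 for Myh7 and 7.11 for Myh2, and then 0.828 for Myh8, 0.519 for Myh6, 0.216 for Myh13 and 0.0653 for Myh3. Myh4 was the highest of the 8 in 10 of 10 libraries, and Myh1 was above Myh2 in 10 of 10. Neighbours in the middle of the order changed places. Myh1 was above Myh7 in 8 of 10 libraries and Myh7 above Myh2 in 8 of 10. The order of the 4 rare chains was not fixed, with Myh8 above Myh6 in 3 libraries and below it in 5. Myh3 was detected in 7 of the 10 libraries and Myh13 in 6.

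As shares of the counts of all 8 genes, the mix varied far less between libraries than the amounts did. Myh4 took between 54.9% (KO mouse 1) and 87.4% (WT mouse 2) of the counts, with a median of 65.5%. Myh1 took 7.57% to 21.7%, Myh2 1.21% to 8.21%, and Myh7 0.0954% to 15.3%, with medians of 17.2%, 4.84% and 9.96%. WT mouse 2 stood apart in its slow chain. Its Myh7 share was 0.0954% (95% Wilson interval 0.0569% to 0.160%, 14 of 14671 counts), while the other 9 untreated libraries held at least 5.38%. Shares taken per kilobase differed from these by no more than 0.32 percentage points.

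**Figure D1:**
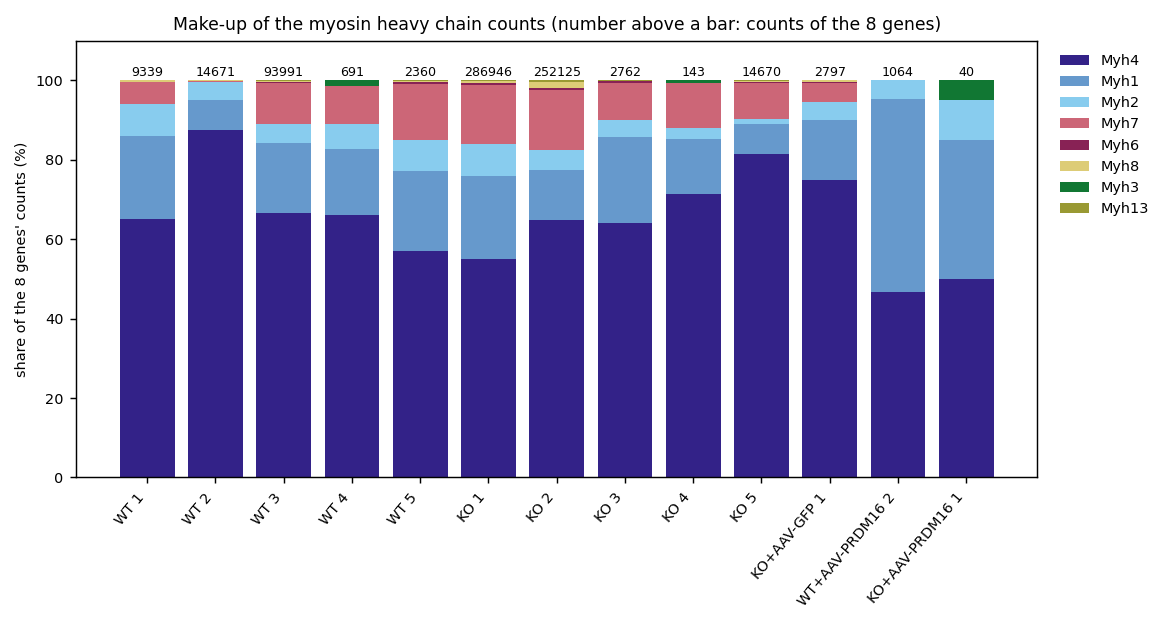
Share of the counts of the 8 myosin heavy chain genes taken by each gene (vertical axis, percent), for the 10 untreated libraries and the 3 AAV libraries with at least 20 such counts, with the number of counts above each bar. Myh4 (dark blue) takes 54.9% to 87.4% in the untreated libraries, and the Myh7 band (red) is missing from WT mouse 2 at this scale and absent from WT+AAV-PRDM16 mouse 2 and KO+AAV-PRDM16 mouse 1 (0 of 40 counts, which allows up to 7.5%).

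Together the 8 genes took very different parts of each library. In WT mice 1 to 5 they made up 0.00765%, 0.00902%, 0.129%, 0.000576% and 0.00188% of all counts, and in KO mice 1 to 5 0.286%, 0.371%, 0.00304%, 0.000259% and 0.0181%. The highest, KO mouse 2, gave 1 count in 269 to myosin heavy chains and the lowest, KO mouse 4, 1 in 386860. Both extremes were thus KO mice, and WT mouse 3 (1 in 774) lay above 3 of the 5 KO mice.

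Myh4, the chain of the fastest fibres, stood at 53.2, 79.6, 918, 3.55 and 12.9 CPM in WT mice 1 to 5 and at 1530.4, 1637, 20.4, 2.02 and 149.6 CPM in KO mice 1 to 5. KO mice 1 and 2 and WT mouse 3 were high, and the groups overlapped over nearly the whole range. The KO mean was 668 ± 839 CPM and the WT mean 213 ± 395 CPM (SD, n = 5 each), and the log2 fold change was 1.65 ± 1.55 (SE), with an adjusted p of 0.558 in edgeR's quasi-likelihood test. Myh1 stood at 17.1, 7.06, 244, 0.896 and 4.59 CPM in WT and at 586, 317, 6.91, 0.397 and 13.9 CPM in KO mice. The same 3 libraries were high and KO mouse 4 was the lowest of all 10. Its log2 fold change was 1.76 ± 1.62, with an adjusted p of 0.551 in the same test. Myh2, the fast oxidative chain, stood at 6.72, 4.05, 66.7, 0.343 and 1.76 CPM in WT and at 222, 122, 1.38, 0.0794 and 2.22 CPM in KO mice. Here 3 of the 5 KO libraries lay below 3 of the 5 WT libraries, and the log2 fold change was 2.13 ± 1.65 (edgeR, adjusted p = 0.478).

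Myh7, the slow chain, stood at 4.40, 0.0869, 143, 0.514 and 3.15 CPM in WT mice 1 to 5 and at 417, 386, 2.94, 0.318 and 17.0 CPM in KO mice 1 to 5. The lowest value belonged to WT mouse 2, which was above 3 WT and 2 KO libraries for Myh4. The log2 fold change was 2.45 ± 1.85 (edgeR, adjusted p = 0.469). Myh6, which shares its chromosome and most of its sequence with Myh7, stood at 0.114, 0, 3.46, 0 and 0.134 CPM in WT and at 14.7, 12.7, 0.173, 0 and 0.476 CPM in KO mice (log2 fold change 2.94 ± 1.81, edgeR, adjusted p = 0.390). Its log2 ratio to Myh7 ran from -7.06 to -4.04, with a median of -5.03, over the 8 untreated libraries with at least 20 counts of the pair. The 2 genes share 22.6% of the 50-base stretches of Myh6, so part of the Myh6 counts may be reads of Myh7, which was not tested. The 10 markers of cardiomyocytes summed to 5.31 to 17.9 CPM in WT and 4.39 to 11.3 CPM in KO mice. Nppa, Nppb, Myl7 and Nkx2-5 had 0 counts in all 10 untreated libraries, and Tnnt2, Tnni3 and Mybpc3 did not pass 0.427, 0.291 and 0.170 CPM. Most of the sum came from Ryr2 (0.953 to 14.9 CPM) and Gja5 (1.57 to 5.10 CPM), and Kcnj3 reached 1.84 CPM.

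The chains of developing and of eye muscles were rare. Myh8, the perinatal chain, stood at 0.289, 0.242, 3.29, 0 and 0.0671 CPM in WT and at 10.9, 35.7, 0, 0 and 0.463 CPM in KO mice. KO mouse 2 was the highest in both CPM and share, with Myh8 at 1.42% of the 8 genes' counts there. The log2 fold change was 3.63 ± 1.87 (edgeR, adjusted p = 0.339), the lowest among the 6 genes tested. Myh13, the extraocular chain, had 0, 0, 46, 0 and 1 counts in WT and 214, 971, 2, 0 and 7 counts in KO mice. Its highest value, 9.71 CPM, was in the same KO mouse 2, where it made up 0.385% of the 8 genes' counts. Myh3, the embryonic chain, had 0, 0, 30, 10 and 1 counts in WT and 238, 103, 2, 1 and 0 counts in KO mice, and never passed 2.31 CPM. Myh3 and Myh13 were too low for the filter on low counts and were not tested in the main fit. In an edgeR fit with no filter on low counts, the log2 fold change of Myh3 was 2.76 ± 1.64 (adjusted p = 0.409). That of Myh13 was 4.255 ± 1.92 in the same fit (unadjusted p = 0.044, adjusted p = 0.379). There 3910 of 30266 genes had an unadjusted p under 0.05. The 11 markers of myoblasts, satellite cells and immature fibres summed to 2.27 to 8.93 CPM in WT and 5.97 to 12.3 CPM in KO mice, with Myl4 (1.35 to 5.47 CPM) and Ncam1 (0.495 to 3.01 CPM) above 0 in all 10 untreated libraries. Chrna1 reached 2.29 CPM. Myog, the differentiation factor of myoblasts, reached 1.99 CPM in KO mouse 1, Pax7 of satellite cells 0.160 CPM in KO mouse 2, and Chrng and Mymx had 0 counts throughout.

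**Figure D2:**
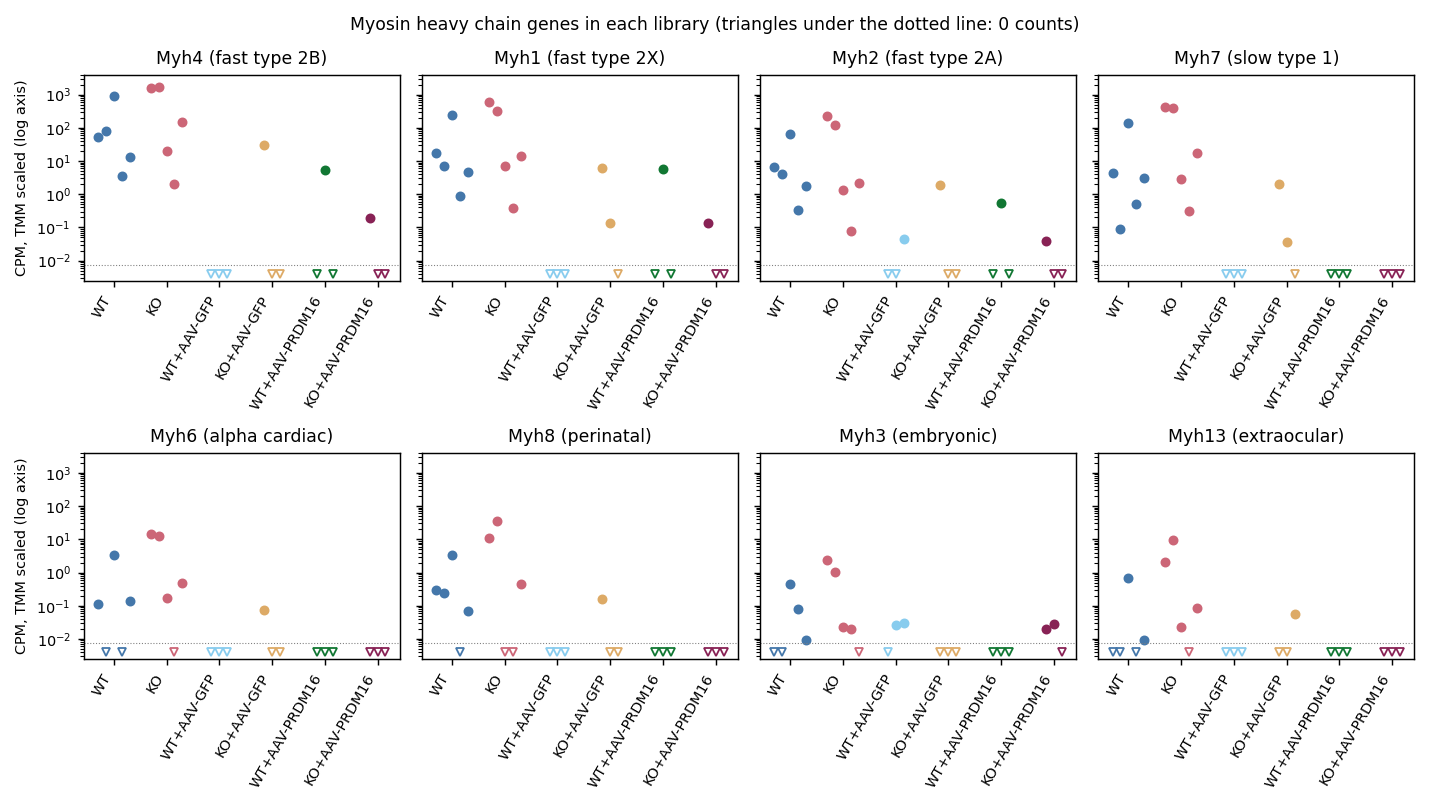
CPM of each myosin heavy chain gene (vertical axis, log scale) in every library, 1 point per mouse in the order of mouse numbers within each of the 6 groups. Open triangles under the dotted line are libraries with 0 counts. WT mouse 3 and KO mice 1 and 2 lie at the top of every panel, and 76 of the 96 AAV values are 0.

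No difference of a myosin heavy chain gene between untreated KO and WT BAT passed the test against the spread between mice. At an adjusted p of 0.05, 0 of the 6 tested genes were called, where 0 of all 17869 genes tested (0%) were. Of the 6, 0 had an unadjusted p under 0.05, where 2836 of the 17869 genes did, and DESeq2 and limma-voom called 0 as well. With the looser thresholds of the study, at least 2-fold and an adjusted p of at most 0.5, Myh2, Myh6, Myh7 and Myh8 counted as higher in KO and Myh1 and Myh4 did not, beside 6.04% of all genes. The study itself used the online tool iDEP. The edgeR fit here passed 1080 genes as higher in KO, so its list is not the study's own. By RT-qPCR, in BAT from mice of several ages, the paper reported higher Myh1 RNA in KO. With DESeq2 all 6 passed these thresholds, with log2 fold changes of 1.75 for Myh1 (adjusted p = 0.449) and 1.65 for Myh4 (adjusted p = 0.457). The share of all genes that passed them with DESeq2 was not computed, so this count has no background. DESeq2 gave 3493 of the 17869 genes an unadjusted p under 0.05. In 0 of the 6 did all KO libraries lie above or below all WT libraries, which 1.4% of the genes tested did. The fold changes turned on single libraries. Without WT mouse 3 the log2 fold change of Myh4 was 4.16 (adjusted p = 0.196, edgeR) and that of Myh7 6.34 (adjusted p = 0.182). Without KO mouse 1, whose Cpeb2 level lay inside the WT range, they were 1.08 and 1.75, with adjusted p of 0.718 and 0.606. Without WT mice 1 and 2 they were 1.07 and 1.72, with adjusted p of 0.904 and 0.869. Under limma-voom with sample quality weights Myh1, Myh2 and Myh4 were lower in KO, by log2 fold changes of -0.27, -0.62 and -0.70. Each mouse gave 1 library, so these p-values measure the spread between mice.

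Ratios within a library do not depend on its total, and they tell fibre types apart. The log2 ratio of Myh1 to Myh4 was -1.64, -3.50, -1.91, -1.98 and -1.49 in WT and -1.38, -2.37, -1.56, -2.32 and -3.43 in KO mice. The groups lay over each other, with a KO minus WT difference of -0.11 (exact permutation test, two-sided, p = 0.786, adjusted p = 0.786 over 3 ratios, n = 5 each). The log2 ratio of Myh2 to Myh4 was -2.99, -4.30, -3.78, -3.36 and -2.87 in WT and -2.78, -3.74, -3.88, -4.51 and -6.07 in KO mice. KO mouse 5 held the least Myh2 for its Myh4, and KO mice differed from WT mice by -0.74 on average (p = 0.270 in the exact permutation test, adjusted p = 0.405). The log2 ratio of Myh7 to Myh4 was -3.60, -9.79, -2.68, -2.78 and -2.03 in WT and -1.88, -2.09, -2.79, -2.64 and -3.14 in KO mice. Its difference of 1.67 (exact permutation test, p = 0.270, adjusted p = 0.405) rested on WT mouse 2. Without that mouse it was 0.27 (exact permutation test, p = 0.540), and without WT mice 1 and 2 it was -0.01. The smallest p that 5 mice against 5 can give is 0.00794.

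**Figure D3:**
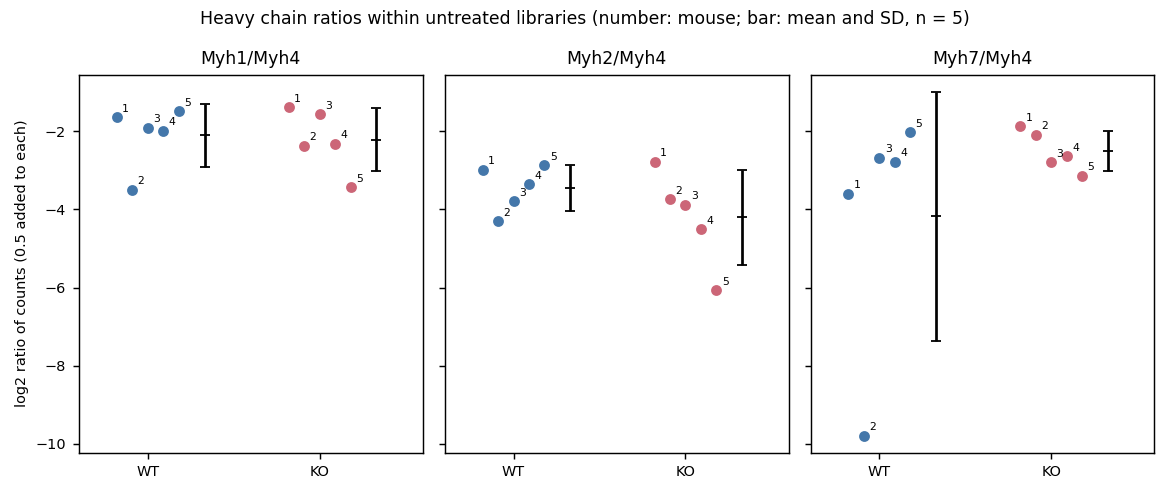
Log2 ratio of Myh1, Myh2 and Myh7 counts to Myh4 counts (vertical axis) in each untreated library, WT and KO, with the mouse number beside each point and the mean and SD of 5 mice as a bar. The groups overlap in all 3 panels, and WT mouse 2 lies at -9.79 in the Myh7 panel.

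In the AAV cohort myosin heavy chains were almost absent. Of the 96 values of 8 genes in 12 libraries, 76 were 0. Myh4 had 0 counts in all 3 WT+AAV-GFP libraries, 2095, 0 and 0 in KO+AAV-GFP mice 1 to 3, 0, 498 and 0 in WT+AAV-PRDM16 mice and 20, 0 and 0 in KO+AAV-PRDM16 mice. Myh1 had 0 counts in all 3 WT+AAV-GFP libraries, 423, 15 and 0 in KO+AAV-GFP, 0, 516 and 0 in WT+AAV-PRDM16 and 14, 0 and 0 in KO+AAV-PRDM16 mice. In each group but WT+AAV-GFP, then, 1 mouse held nearly all of the counts. Of the other genes, Myh2 reached 127 counts and Myh7 136, both in KO+AAV-GFP mouse 1, and Myh3, Myh6, Myh8 and Myh13 did not pass 11. The true number behind a count of 0 could be as high as 3 counts by counting error alone, which is 0.0203 to 0.0501 CPM in these libraries.

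The 2 mice with the most myosin counts differed in their mix. KO+AAV-GFP mouse 1 held 2797 counts, with Myh4 at 74.9% (95% Wilson interval 73.3% to 76.5%), Myh1 at 15.1% and Myh7 at 4.86%, shares inside the untreated ranges of Myh4 and Myh1 and below all untreated libraries but WT mouse 2 for Myh7. WT+AAV-PRDM16 mouse 2 held 1064 counts, with Myh1 at 48.5% (45.5% to 51.5%) and Myh4 at 46.8% (43.8% to 49.8%). Its Myh7 had 0 of 1064 counts, which allows a share of up to 0.282%, and Myl2, the slow light chain, and Tnnt1 and Tnni1, the slow troponins, also had 0 counts there. The other slow fibre partners were above 0 in that library, Atp2a2 at 254.6, Casq2 at 1.05, Myl3 at 0.818, Tnnc1 at 0.199 and Myoz2 at 0.0885 CPM. Mybpc1, listed with the thick filament partners, stood at 0.863 CPM. The zeros of Myl2, Tnnt1 and Tnni1 were not particular to this library. Myl2 and Tnni1 were at 0 in every WT+AAV-PRDM16 mouse, and Tnnt1 was at 0 in mouse 3 and at 0.0702 CPM in mouse 1. In the whole AAV cohort Myl2 was above 0 only in KO+AAV-GFP mouse 1 (0.596 CPM). Each of the 2 mixes comes from 1 library, so neither has a replicate check.

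Only Myh1 and Myh4 passed the filter on low counts in the AAV cohort, and neither was called in any of the 5 contrasts. For KO against WT with AAV-GFP the adjusted p in edgeR's quasi-likelihood test was 0.478 for Myh1 and 0.451 for Myh4, where 0.0529% of the 18899 genes tested were called, and for KO against WT with AAV-PRDM16 it was 0.451 and 0.541, where 0.0476% were called. For AAV-PRDM16 against AAV-GFP it was 0.610 and 0.700 in WT and 0.929 and 0.767 in KO mice, and for the genotype by virus interaction 0.9998 for both, with 0% of genes called in each. Unadjusted, p was under 0.05 for 2 genes in KO against WT with AAV-GFP, 0 with AAV-PRDM16, 1 for the virus in WT, 1 for the virus in KO and 2 for the interaction, each of the 2 tested, beside 1734, 2594, 1377, 1211 and 603 of the 18899 genes. Limma-voom called 0 in all 5, and DESeq2 gave no adjusted p for either gene. With groups at 0 the fitted folds depend on the small count that the fit adds, and they are no sizes or bounds of an effect. Prdm16 itself stood at 45.9 to 128 CPM in the 6 AAV-PRDM16 libraries and at 23.9 to 40.2 CPM in the 6 AAV-GFP libraries, so all 6 lay above every AAV-GFP library.

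The partners of the heavy chains in the sarcomere had the same 3 high untreated libraries. Of 9 fast fibre partners, 0 were called at an adjusted p of 0.05 and 6 counted as higher in KO at the study's thresholds, beside 6.04% of all genes. Their median log2 fold change was 2.04 against 0.04 over all genes tested. Atp2a1, the calcium pump of fast fibres, ran from 1.61 to 511 CPM in WT and from 1.73 to 843 CPM in KO mice, Tnnt3, fast troponin T, from 1.28 to 238 and from 0.576 to 591 CPM, Tnni2, fast troponin I, from 0.942 to 174 and from 0.615 to 492 CPM, and Myl1, a fast light chain, from 34.6 to 101 and from 35.1 to 276 CPM. Of 8 slow fibre partners, 0 were called and 7 passed the looser thresholds, beside the same 6.04% of all genes, with a median of 2.54. Myl2 ran from 0 to 31.6 CPM in WT and from 0 to 114 CPM in KO mice, and was at 0 in WT mouse 2 and KO mouse 4, as were Tnni1 and Tnnt1. Atp2a2, the calcium pump of slow fibres that most other cells also use, did not follow them, with 142 to 251 CPM in WT and 75.9 to 273 CPM in KO mice (log2 fold change -0.33 ± 0.37, edgeR, adjusted p = 0.623). The lists were chosen with earlier results of these data known, so these counts are no independent evidence of a direction.

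Of 11 thick filament partners and myosin chaperones, 0 were called and 4 passed the looser thresholds (median log2 fold change 1.48), beside 6.04% of all genes. Mybpc1, myosin-binding protein C of slow fibres, ran from 0.257 to 74.6 CPM in WT and from 0 to 208 CPM in KO mice, and Myom1, a protein of the M-band, from 8.61 to 46.8 and from 8.33 to 108 CPM. Unc45b, the chaperone that folds striated myosin, was spread less, from 9.24 to 28.0 CPM in WT and from 17.0 to 39.0 CPM in KO mice, and Hsp90aa1, a general chaperone, ran from 149 to 647 and from 71.4 to 320 CPM. Of the 6 other heavy chain genes, Myh7b, a chain of striated muscle, had the same 3 high libraries, with 3.14, 4.57 and 7.14 CPM in WT mouse 3 and KO mice 1 and 2 and at most 1.23 CPM in the others (log2 fold change 1.20 ± 0.79, edgeR, adjusted p = 0.414). Myh9, the nonmuscle chain of most cells, stood at 87.5 to 191.6 CPM in WT and 110.1 to 234 CPM in KO mice (log2 fold change -0.03 ± 0.30, edgeR, adjusted p = 0.963). Myh10, another nonmuscle chain, and Myh11, the smooth muscle chain, had log2 fold changes of -0.93 ± 0.30 and -0.87 ± 0.26, each with an adjusted p of 0.305 in edgeR. Myh14, also nonmuscle, stood at 13.96 to 44.95 CPM in WT and 11.6 to 31.5 CPM in KO mice (log2 fold change -0.10 ± 0.34, edgeR, adjusted p = 0.884). Of the 5 tested genes in this list 0 were called, and Myh7b was the 1 that passed the looser thresholds, beside the same 6.04% of all genes. Myh15, below the filter, reached 0.220, 0.282 and 0.340 CPM in those 3 libraries and at most 0.0501 CPM in the others.

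The genes whose pattern was most like that of Myh4 were muscle genes. The measure was the root mean square difference of log2 CPM over the 22 libraries, each gene centred on its mean in each cohort, among 21966 protein-coding genes. The nearest to Myh4 were Ckm, muscle creatine kinase (0.744), Tnnt3 (0.960), Xirp2, a protein of the fibre's ends and discs (1.02), Mybpc1 (1.22) and Actn3, the actinin of fast fibres (1.24), where the median gene stood at 3.46. Myh1, at 0.949, was as near as these. The nearest to Myh7 were Myl2 (0.695), Tnni1 (1.10), Apobec2 (1.20), Trim54, a ubiquitin ligase of muscle fibres (1.24), and Smtnl1 (1.29), with a median gene at 3.05. Myh6 stood at 1.08 from Myh7, and Myh4 and Myh7 at 2.39 from each other. Genes of 1 library share its tissue sample and depth, so these distances are a description.

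Few counts were assigned to the annotated antisense transcripts that overlap exons of these genes. Myhas, which overlaps 8.11% of the exon bases of Myh1, had 274 counts over the 10 untreated libraries where Myh1 had 114130, with the most, 107, in KO mouse 2. Mhrt, which overlaps 5.62% of those of Myh7, had 9 counts where Myh7 had 93817. The strand setting of the counting is not given in the sources used here, so reads of a gene and of its antisense partner cannot be told apart.

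Markers of skeletal muscle fibres other than myosin were highest in the libraries with the most myosin. The summed CPM of 12 such markers, among them Acta1, skeletal actin, and Ttn, titin, was 131, 142, 1864, 54.7 and 129 in WT mice 1 to 5 and 3358, 3844, 167, 109.5 and 849.8 in KO mice 1 to 5, and the same 3 libraries were the highest for both sums. In the AAV cohort it ran from 33.8 to 104, and the highest value was that of KO+AAV-GFP mouse 1. Below the highest libraries the order differed. KO mouse 3 had the larger marker sum than WT mouse 2 but the smaller myosin sum (31.8 against 91.1 CPM). WT+AAV-PRDM16 mouse 1, with 0 myosin counts, stood at 70.0, above mouse 2 of that group at 64.5. Des alone gave 62.7 CPM of that 70.0, and 89.8 CPM in KO mouse 4. All 12 were above 0 in 9 of the 10 untreated libraries, and in KO mouse 4 Cacna1s, Myot and Xirp2 were at 0. The ratio of muscle genes to Myh4 still differed between mice. The log2 ratio of Acta1 to Myh4 was -1.93 in WT mouse 2 and 0.88 in KO mouse 5, with a median of -0.76. The part of muscle tissue in the samples was not tested.

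**Figure D4:**
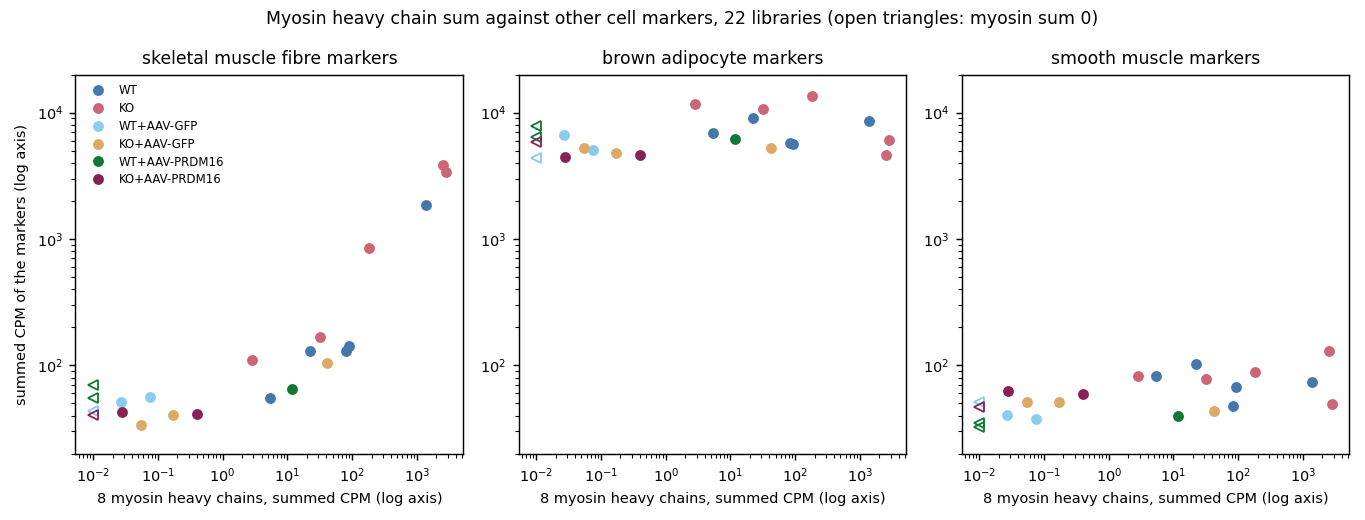
Summed CPM of 12 skeletal muscle fibre, 9 brown adipocyte and 5 smooth muscle markers (vertical axes, log scale) against the summed CPM of the 8 myosin heavy chain genes (horizontal axis, log scale) in the 22 libraries, coloured by group, with open triangles at a myosin sum of 0. Fibre markers are highest, at 1864 to 3844, in the 3 libraries with the most myosin, while brown adipocyte markers stay between 4373 and 13610.

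Brown adipocyte markers did not order the libraries in this way. The summed CPM of 9 markers was 5746, 5615, 8651, 6900.0 and 9088 in WT mice 1 to 5 and 6066, 4639, 10690.0, 11690.0 and 13610.0 in KO mice 1 to 5, and 0 of the 9 were at 0 in any library. The 2 KO mice with the most myosin had the 2 lowest sums of their group, and WT mouse 3 had the second highest of its group. Smooth muscle markers summed to 48.0 to 102 CPM in WT and 49.0 to 129 CPM in KO mice, within a narrow range beside that of the heavy chains, and 0 of the 5 were called.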

How the data were processed

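The authors deposited, for each cohort, a table of whole-number counts per Ensembl gene, made from mRNA libraries of 1 mouse each (SureSelect XT HS2). The submitters' processing notes name bcl2fastq 2.20, Trimmomatic 0.36, HISAT2 and GRCm38.p6. The counting tool and its handling of strand, molecular identifiers and reads that fit several genes are not given in the sources used here. Among the low values, 4 was more frequent (6214 untreated and 9336 AAV values) than 3 (6068 and 6580) or 5 (3987 and 3403), so 1 count may not be 1 read, and intervals and floors may be too narrow. Symbols came from GENCODE M21, which matched 55141 of 55487 identifiers. Counts were tested in R 4.3.3 with edgeR 4.0.16 (filterByExpr, TMM scaling, quasi-likelihood test, Benjamini-Hochberg over 17869 untreated or 18899 AAV genes), in 1 fit per cohort. CPM are TMM scaled, and levels per kilobase use the longest coding transcript. Ratios (0.5 added to each count, at least 20 counts) were compared by exact permutation (scipy 1.17.1). The 15 planned ratio tests came to 3, since no AAV group had more than 1 such library. On simulated counts of the untreated cohort, the test recovered 39.4% of changes of 2 on the log2 scale and 4.2% of changes of 1, among 200 changed genes of 17869. The 200 were drawn at random from all genes tested. These shares therefore do not hold for the heavy chains, whose SE of the log2 fold change ran from 1.55 (Myh4) to 1.87 (Myh8). The recovery of a change in these genes was not simulated. Alternatives used DESeq2 1.42.0 and limma 3.58.1. Coding sequences were aligned with MAFFT 7.526. All 8 genes are named with their values. Of the 3 partner lists and the other heavy chains, the 4 with the highest mean CPM over the 22 libraries are named, and for likeness the 5 nearest genes to Myh4 and Myh7. Genes named from the marker lists, further partners, Myh7b and Myh15 were chosen after their values were seen. The members and lists were chosen with earlier results of these data known. Replicate numbers did not pair mice: the correlation of same-numbered libraries ran from -0.292 to 0.111 in the untreated and from -0.0912 to 0.154 in the AAV cohort.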

Additional observations from a re-analysis of the deposited data

Results flagged for a closer look

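Within a group of 5 mice, a mouse was singled out when its gap to the nearest other mouse was large beside the whole range of its group. Of 22 such checks 11 singled out a mouse, where chance gives about 1 in 20 for values with a normal spread. The CPM were checked unlogged, where a large gap at the top is common, so that rate does not hold for them. The checks are also not independent, since genes of 1 library move together. WT mouse 3 was the highest of the WT group for all 8 genes, at 244 CPM of Myh1, 66.7 of Myh2, 0.44 of Myh3, 918 of Myh4, 3.46 of Myh6, 143 of Myh7, 3.29 of Myh8 and 0.675 of Myh13. KO mouse 2 stood above the other KO mice for Myh13, at 9.71 CPM. WT mouse 2 had the lowest log2 ratios of its group, -3.50 for Myh1 to Myh4 and -9.79 for Myh7 to Myh4. Its Myh1 and Myh2 levels were the medians of the WT group, and its Myh7 level was the lowest of the group.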

How the results depend on the processing

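No alternative that tested a gene of the 8 called it at an adjusted p of 0.05. Several could test few: DESeq2 gave no adjusted p in the AAV cohort, and fits of only the 2 groups compared tested 0 of the 8 in 3 contrasts and 1 in the virus contrast of KO mice. The study's own thresholds gave 4 of 6 genes in the untreated cohort with edgeR and 6 of 6 with DESeq2. With edgeR 6.04% of all genes passed them as higher in KO, and the share with DESeq2 was not computed. With the replicate block, the log2 fold change of Myh4 in untreated KO against WT mice was 2.24 (adjusted p = 0.517) and that of Myh7 2.74 (adjusted p = 0.597), and the block changed no call. With each untreated mouse left out in turn, the log2 fold change of Myh4 ran from 0.97 to 4.16 and that of Myh7 from 1.75 to 6.34, highest without WT mouse 3. Limma-voom with sample quality weights turned the sign of Myh1 (-0.27), Myh2 (-0.62) and Myh4 (-0.70) in the untreated cohort, and of Myh4 for the virus in KO mice (1.44). The cause was not tested. The KO minus WT difference in log2 Myh1/Myh4 ran from -0.46 to 0.20 with 1 mouse left out, reversing without KO mouse 5 (0.20), WT mouse 1 (0.0079) or WT mouse 5 (0.046). That in log2 Myh2/Myh4 ran from -1.09 to -0.27. That in log2 Myh7/Myh4 ran from 0.27 to 2.21, and without WT mice 1 and 2 it was -0.0085. In the AAV cohort the groups hold libraries at 0, so the fitted log2 fold changes depend on single mice and are no sizes or bounds. With 1 mouse left out, those for KO against WT with AAV-GFP ran from 0.00 to 13.67 (Myh4, at 0.00 without KO+AAV-GFP mouse 1, as both groups were then at 0), those for KO against WT with AAV-PRDM16 from -10.65 to 5.44 (Myh1) and -10.6 to 5.96 (Myh4), changing sign without WT+AAV-PRDM16 mouse 2, and those for the virus in WT mice from 0.00 to 11.26 (Myh1) and 0.00 to 11.2 (Myh4), at 0.00 without that mouse, as both groups were then at 0. For the virus in KO mice Myh4 ran from -13.09 to 5.96, reversing without KO+AAV-GFP mouse 1. Ratio tests in the AAV cohort could not be run, as no group had 2 libraries with enough counts. Myh3 and Myh13 passed the filter in neither cohort as analysed above. Depth limits the AAV values, where a count of 0 allows up to 3 counts.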
